A study of Mus musculus with 10 samples.

Results

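The genes of 10 inflammatory chemokines of stromal cells were followed in RNA-seq libraries of mouse Peyer's patch mesenchyme. They were taken by gene name from the deposited tables, and are 10 of the 47643 genes listed there: Ccl2, Ccl7, Ccl8, Ccl11, Cxcl1, Cxcl5, Cxcl9, Cxcl10, Cxcl16 and Cx3cl1. The cells came from wild-type C57BL/6 mice and were sorted from Peyer's patches, the lymphoid follicles of the small intestinal wall, as podoplanin-positive cells without CD45, EpCAM1, TER119 or CD31. The MAdCAM1-negative gate is labelled MCi (n = 5 libraries) and the MAdCAM1-positive gate MRC (n = 5). The ages of the mice and the number pooled per library are not given in the labels, which name no treatment for either group.

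Chemokines are small secreted proteins that bind receptors on leukocytes and direct their movement. The inflammatory members of the family are made at low levels by resting fibroblasts and are induced by cytokines such as TNF, IL-1 and interferons, whose signals reach the genes through NF-kB, STAT and IRF factors. CCL2 and CCL7 attract monocytes through CCR2, CCL11 (eotaxin) attracts eosinophils through CCR3, and CXCL1 and CXCL5 attract neutrophils through CXCR2. CXCL9 and CXCL10 attract activated T cells through CXCR3, while CXCL16 (ligand of CXCR6) and CX3CL1 (fractalkine, ligand of CX3CR1) are made as membrane-bound proteins that proteases release.

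Most members lie in chemokine clusters. On GRCm38 chromosome 11, Ccl2 (82035571 to 82037453), Ccl7 (82045712 to 82047525), Ccl11 (82057823 to 82062955) and Ccl8 (82115185 to 82116799) followed each other on the plus strand, with 8.3, 10.3 and 52.2 kb between neighbours. Cxcl16 (70453983 to 70459984, minus strand) lay apart on the same chromosome. On chromosome 5, Cxcl5 (90759360 to 90761624) and Cxcl1 (90891241 to 90893115) stood on the plus strand, and Cxcl9 (92321347 to 92328079) and Cxcl10 (92346638 to 92348889) were 18.6 kb apart on the minus strand. Cx3cl1 (94772009 to 94782423) was the member on chromosome 8.

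Upstream sequence was at hand in RefSeq (GRCm38.p6) for 5 of the 10 members, and that of Cxcl1, Cxcl10 and Cxcl9 is shown. The windows of Ccl8 and Cx3cl1 were searched in the same way and are not printed. Levels of these genes also differed between libraries, as described further on. Each line gives the 250 bases before the RefSeq start, 5′ to 3′ on the gene's strand. For Cxcl1 and Cx3cl1 the RefSeq start lies inside the gene as the deposited tables place it, so their windows end within it, and distances to motifs are counted from the RefSeq start. Capitals mark matches to the kappaB consensus, which NF-kB binds, or to GAAANNGAAA, the core of the interferon-stimulated response element (ISRE).
Cxcl1, chr5:90890995-90891244, plus strand: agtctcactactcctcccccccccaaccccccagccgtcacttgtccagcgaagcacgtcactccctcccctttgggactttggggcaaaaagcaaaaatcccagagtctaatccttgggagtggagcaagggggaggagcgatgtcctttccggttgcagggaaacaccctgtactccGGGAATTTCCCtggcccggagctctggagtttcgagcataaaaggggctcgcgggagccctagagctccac
Cxcl10, chr5:92348890-92349139, minus strand: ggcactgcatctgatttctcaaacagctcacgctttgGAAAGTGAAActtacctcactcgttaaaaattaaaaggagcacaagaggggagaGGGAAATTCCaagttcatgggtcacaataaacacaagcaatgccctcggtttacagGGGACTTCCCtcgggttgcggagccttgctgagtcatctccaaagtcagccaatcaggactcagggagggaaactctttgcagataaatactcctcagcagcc
Cxcl9, chr5:92328080-92328329, minus strand: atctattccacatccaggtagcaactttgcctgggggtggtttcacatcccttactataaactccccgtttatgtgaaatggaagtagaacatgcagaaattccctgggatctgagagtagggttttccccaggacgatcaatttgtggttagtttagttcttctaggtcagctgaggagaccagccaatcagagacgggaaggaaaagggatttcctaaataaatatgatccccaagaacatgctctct
In the Cxcl1 window, 2 overlapping matches to the kappaB consensus, 1 on each strand, began 71 and 70 bases before the start. Cxcl10 held 2 kappaB matches, 159 and 103 bases before the start, and an ISRE core at 213 bases. These letters were not found in the window of Cxcl9, nor in those of Ccl8 and Cx3cl1. Of 32851 RefSeq promoter windows of this length, 3.9% held the kappaB consensus and 2.98% the ISRE core, searched on both strands. The AP-1 motif TGANTCA was found in Cxcl10, and in 6.75% of all windows. The TATA motif TATAAA was found in Ccl8, Cxcl9 and Cx3cl1, 32, 195 and 6 bases before the RefSeq start, and in 12.4% of all windows. A match describes the letters and does not show that a factor binds.

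All 10 members were read in every library. Per length, Ccl11 stood far above the others: the authors' deposited RPKM (exon reads scaled to exon length and to the total gene reads of the library) averaged 774 ± 301 in MCi and 466 ± 232 in MRC (SD, n = 5 each), and its lowest library, at 323, was above the highest library of any other member, which was Cxcl1 at 161. Next came Cxcl10, Cxcl16 and Cxcl1, with mean RPKM over the 10 libraries of 62.8, 62.1 and 57.3. Their ranges, 13.3 to 146, 39.4 to 106 and 14.4 to 161, overlapped almost wholly, so their order is not set. Ccl2 and Ccl7 followed at 33.1 and 26.0, Ccl8 and Cxcl9 at 19.4 and 18.7, and Cx3cl1 and Cxcl5 at 13.2 and 13.1, again with overlapping ranges between neighbours. This order pools the gates and does not hold within them for Cx3cl1, which was the lowest member in MCi, at a mean RPKM of 8.60, and above Ccl8 and Cxcl9 in MRC, at 17.9 against 11.3 and 10.5. Ccl11 alone made up 43.4% to 64.7% of the summed CPM of the 10 genes in a library.

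The comparison of the gates asked whether the MAdCAM1-positive and MAdCAM1-negative mesenchyme differ in these chemokine transcripts. Levels within a gene are given from here as CPM (counts of exon reads scaled to the library total and its TMM factor), and fold changes as log2, MRC minus MCi, with the standard error. None of the 10 members passed in the edgeR quasi-likelihood test (adjusted p = 0.389 to 0.968), against 0.437% of the 12127 genes tested. At an unadjusted p under 0.05 there were 0 members, against 16.7% of all genes, and DESeq2 also called 0, against 7.47% of genes. Without MRC4 and MRC5 there were again 0, against 1.03%. In each of the 10 genes the range of the MRC libraries overlapped that of the MCi libraries, whereas the ranges did not overlap for 3.79% of genes. The fitted change was below 0 for 9 members and above 0 for Cx3cl1; over all genes it was below 0 for 49.0%. The median was −0.52 for the members and 0.01 for all genes tested. The missed threshold does not show that levels were equal, since the standard errors ran from 0.28 (Cxcl16) to 0.85 (Cxcl9).

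**Figure D1:**
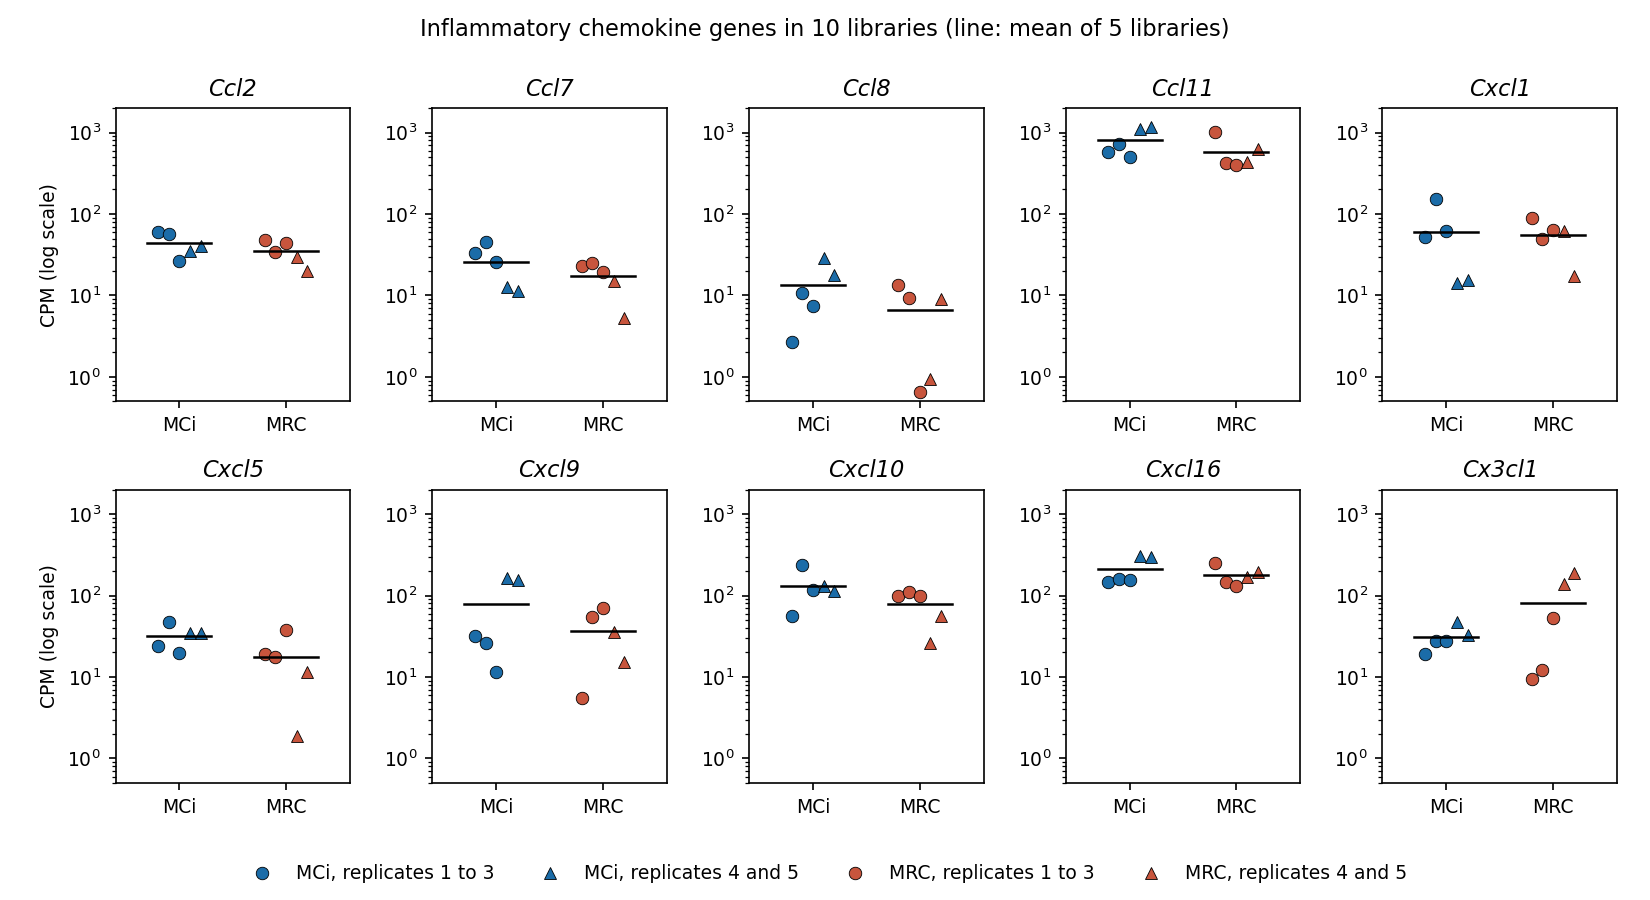
CPM of each inflammatory chemokine gene (log scale) in the 5 MCi and 5 MRC libraries; circles are replicates 1 to 3, triangles replicates 4 and 5, and the line is the mean of 5 libraries. The groups overlap for every gene, Ccl11 is at 398 to 1157 CPM, and MCi4 and MCi5 lie together at the top for Cxcl9 and at the bottom for Cxcl1.

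Beside this contrast stand properties of the libraries. Total exon reads were 3941032 to 4761017 in replicates 1 to 3 and 6142562 to 8738115 in replicates 4 and 5 of either gate. The labels name neither a batch nor the animal behind a library, and a p-value therefore measures the spread among libraries, which may be technical. MCi4 and MCi5 were the most similar pair of MCi: the mean chi-square per gene between their counts was 7.77, where sampling noise alone gives about 1, against 21.6 to 41.2 for the other MCi pairs. MRC4 and MRC5, gated against EpCAM1, held epithelial transcripts: the summed CPM of 15 epithelial markers was 36320 and 50448 there, 13.1 to 6212 in the other MRC libraries and 18.8 to 1485 in MCi. The 10 fibroblast markers, Pdpn among them, summed to 26688 and 26653 CPM in MRC4 and MRC5. The sum was 91613 to 134613 CPM in MRC1 to MRC3 and 45081 to 76268 CPM in MCi. Of the 9 tested, 0 passed in edgeR, with 1 at an unadjusted p under 0.05 and 1 called by DESeq2. Their fitted changes were split, with 5 above 0 and 4 below 0, namely Pdgfra, Vim, Pdgfrb and Pdpn. Pdgfra was at 1154 to 2343 CPM in MCi and 268 to 928 CPM in MRC (−1.48 ± 0.40, edgeR adjusted p = 0.144). In such bulk libraries, fewer cells of a type and less RNA per cell cannot be told apart.

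Of the ligands of CCR2, Ccl2 measured 60.02, 56.9, 26.2, 34.97 and 40.4 CPM across the MCi libraries 1 to 5, against 47.7, 33.7, 43.6, 29.9 and 19.7 CPM across the MRC libraries 1 to 5. The groups overlapped, with MCi1 highest and MRC5 lowest (43.7 ± 14.4 and 34.9 ± 11.1 CPM, SD, n = 5; log2 fold change −0.32 ± 0.29, edgeR adjusted p = 0.635). Ccl7, its neighbour on the chromosome, measured 33.6, 45.8, 25.7, 12.7 and 11.4 CPM across the MCi libraries 1 to 5, against 22.8, 25.0, 19.5, 14.9 and 5.33 CPM across the MRC libraries 1 to 5. In both gates its lowest libraries were replicates 4 and 5, and the change between the gates did not pass (−0.56 ± 0.47, edgeR adjusted p = 0.603). The Ccl7 change was −0.64 ± 0.26 in replicates 1 to 3 alone and −0.30 ± 0.57 in replicates 4 and 5 alone (edgeR adjusted p = 0.446 and 0.741). These neighbours were the second closest pair of members across the 10 libraries. Their log2 CPM, centred on each gene's mean, differed by 0.57 (root mean square), against 0.25 for the closest pair, Ccl11 and Cxcl16, and 2.30 for the most distant, Ccl8 and Cx3cl1. Only 39.4% of the Ccl2 reads were counted as unique by the authors, and the gene Gm17268 that overlaps it on the other strand had 0 reads; with unique reads alone the Ccl2 change was −0.36.

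Ccl11, the eotaxin gene, measured 582, 728, 504, 1092 and 1157 CPM across the MCi libraries 1 to 5, against 1024, 420, 398, 429 and 629 CPM across the MRC libraries 1 to 5. MCi4, MCi5 and MRC1 stood above the other 7 libraries. The means were 813 ± 297 and 580 ± 265 CPM (SD, n = 5; log2 fold change −0.49 ± 0.34, edgeR adjusted p = 0.515). Ccl8, a CC chemokine gene close to it, was the lowest member in CPM, with 2.69, 10.8, 7.37, 28.6 and 18.04 CPM across the MCi libraries 1 to 5 against 13.3, 9.27, 0.651, 0.939 and 9.08 CPM across the MRC libraries. It rested on 622 reads in all, 3 of them in MRC3 and 6 in MRC4, and its change of −1.04 ± 0.81 did not pass (edgeR adjusted p = 0.572).

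Among the ligands of CXCR2, Cxcl1 measured 52.9, 154, 61.1, 14.0 and 15.6 CPM across the MCi libraries 1 to 5, against 88.8, 49.2, 62.8, 61.2 and 17.6 CPM across the MRC libraries 1 to 5. Its lowest libraries were MCi4, MCi5 and MRC5, and the gate means were nearly the same (59.4 ± 56.8 and 55.9 ± 25.8 CPM, SD, n = 5). The log2 fold change of −0.09 ± 0.65 (edgeR adjusted p = 0.968) changed sign with the setting, and was 0.65 without MCi2 alone. Cxcl5, which intestinal epithelium can also make, measured 24.0, 47.4, 19.5, 35.1 and 34.6 CPM across the MCi libraries 1 to 5, against 19.2, 17.8, 37.8, 1.88 and 11.7 CPM across the MRC libraries 1 to 5. The lowest 2 values were those of MRC4 and MRC5, the libraries with the most epithelial and the fewest fibroblast transcripts. Its change was −0.87 ± 0.57 (edgeR adjusted p = 0.487), and −0.36 ± 0.34 without these libraries.

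Of the ligands of CXCR3, Cxcl9, an interferon-gamma target, measured 32.2, 26.0, 11.4, 163 and 157 CPM across the MCi libraries 1 to 5, against 5.46, 54.3, 70.6, 35.2 and 15.4 CPM across the MRC libraries 1 to 5. MCi4 and MCi5 stood above all other libraries, and MCi1 to MCi3 lay inside the MRC range. The change of −1.11 ± 0.85 did not pass (edgeR adjusted p = 0.562). Cxcl10, induced by both classes of interferon, measured 56.2, 234, 116, 132 and 114 CPM across the MCi libraries 1 to 5, against 98.8, 109, 99.7, 26.3 and 55.5 CPM across the MRC libraries 1 to 5. It was lowest in MRC4, had the smallest p of the 9 members with a change below 0, and did not pass (130 ± 64.8 and 77.9 ± 35.6 CPM, SD, n = 5; −0.74 ± 0.43, edgeR adjusted p = 0.418). Its neighbour Cxcl9 was ordered differently: MCi2 was the highest library for Cxcl10, at 234 CPM, while MCi4 was highest for Cxcl9. The kit does not mark strand, and Cxcl10 lies within Art3 on the other strand. Art3 reads were at 35.4 to 92.3 CPM in MCi and 2.66 to 36.6 CPM in MRC, only 38.6% of Cxcl10 reads were counted as unique, and with unique reads its change was −0.84.

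Cxcl16 and Cx3cl1, the membrane-bound pair, were ordered differently across the libraries. Cxcl16 was the steadiest member, with 145, 161, 157, 306 and 300 CPM across the MCi libraries 1 to 5 against 254, 147, 130, 171 and 194 CPM across the MRC libraries. As for Ccl11, MCi4, MCi5 and MRC1 were its highest libraries (−0.26 ± 0.28, edgeR adjusted p = 0.708). It overlaps Zmynd15 on the other strand, and 91.3% of its reads were counted as unique. Cx3cl1 measured 19.3, 28.0, 27.6, 47.1 and 33.2 CPM across the MCi libraries 1 to 5, against 9.498, 12.1, 53.6, 140 and 191 CPM across the MRC libraries 1 to 5. The MRC libraries fell on both sides of the MCi range, with MRC1 and MRC2 below it and MRC3, MRC4 and MRC5 above it.

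The fitted Cx3cl1 change of 1.39 ± 0.75 (31.0 ± 10.3 and 81.2 ± 80.8 CPM, SD, n = 5; edgeR adjusted p = 0.389) was the one member change toward MRC, and turned to −0.30 ± 0.56 without MRC4 and MRC5. Intestinal epithelium is also known to make fractalkine. The MRC libraries 1 to 5 held 0.237, 23.2, 107, 904 and 856 CPM of Epcam, named after its values were seen. This was the order of Cx3cl1 except that MRC5 was highest for Cx3cl1. The 15 epithelial markers summed to 13.1, 420, 6212, 36320 and 50448 CPM in the same libraries, which was the order of Cx3cl1. Among MCi libraries the summed epithelial markers did not give the order of Cx3cl1. MCi3 and MCi2 had 27.6 and 28.0 CPM of Cx3cl1 at sums of 18.8 and 1485 CPM. MCi1 had 19.3 CPM of Cx3cl1 at a sum of 57.6 CPM, while MRC2 had 12.1 CPM at a sum of 420 CPM. The 15 epithelial markers all had fitted changes above 0, with 0 past the threshold in edgeR, 7 at an unadjusted p under 0.05 and 7 called by DESeq2. Their part in the Cx3cl1 result was not tested.

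**Figure D2:**
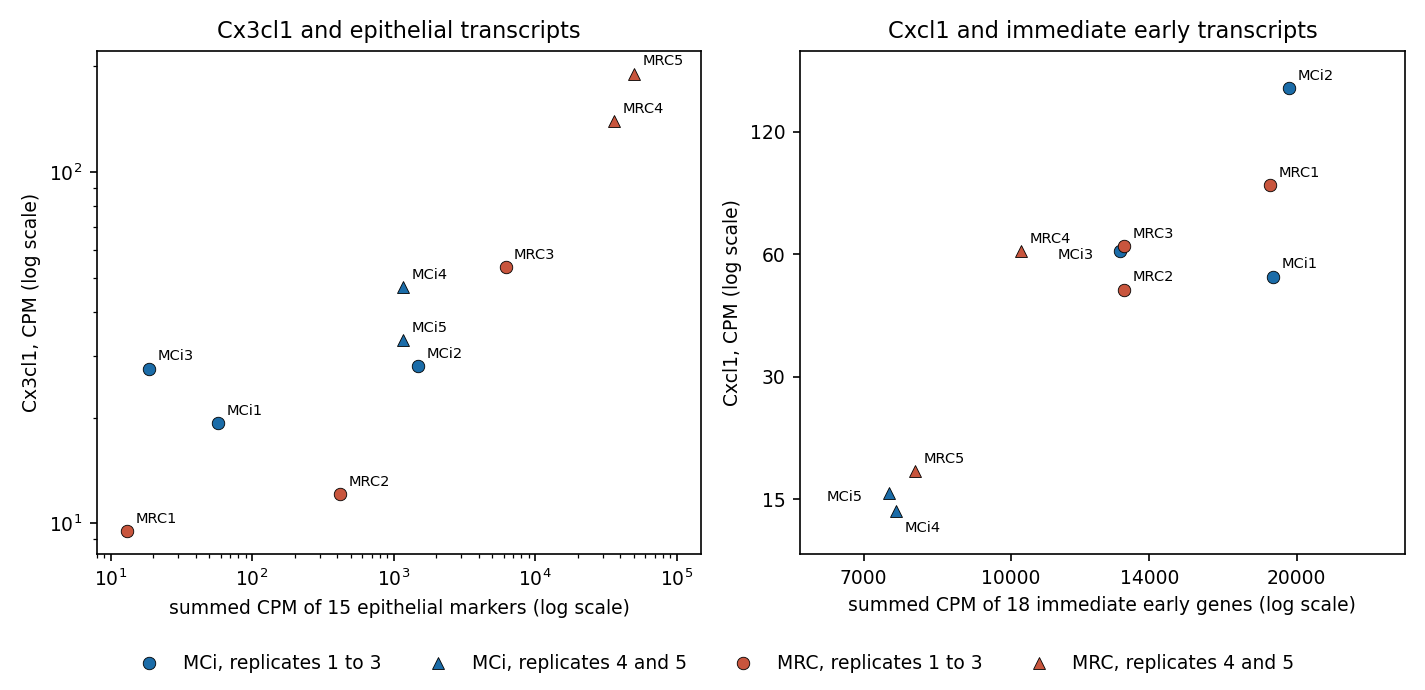
Left, Cx3cl1 against the summed CPM of 15 epithelial markers; right, Cxcl1 against the summed CPM of 18 immediate early and dissociation response genes; each point is 1 of 10 libraries and all axes are log scales. MRC4 and MRC5 are highest on both axes on the left, at 140 and 191 CPM of Cx3cl1, and MCi4, MCi5 and MRC5 are lowest on both axes on the right, at 14.0 to 17.6 CPM of Cxcl1. On the left, MCi2 and MCi3 lie at 28.0 and 27.6 CPM of Cx3cl1, with marker sums of 1485 and 18.8 CPM.

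Libraries of 1 gate differed more in most of these genes than in the majority of genes tested. The SD of log2 CPM within gates was 1.00 at the median of the 10 members, against 0.42 at the median of the 9585 genes tested with a mean of at least 10 CPM, and all 10 members were above the latter. It was largest for Cxcl9 (1.58), Ccl8 (1.54), Cx3cl1 (1.42), Cxcl1 (1.19) and Cxcl5 (1.14), each larger than that of 91.1% to 94.3% of those genes. Cxcl16 (0.46), Ccl2 (0.50) and Ccl11 (0.56) were the steadiest. Over all 12127 genes tested, without the minimum of 10 CPM, the median was 0.48, and Cxcl16 was below it. This spread is given as a description, with no test.

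**Figure D3:**
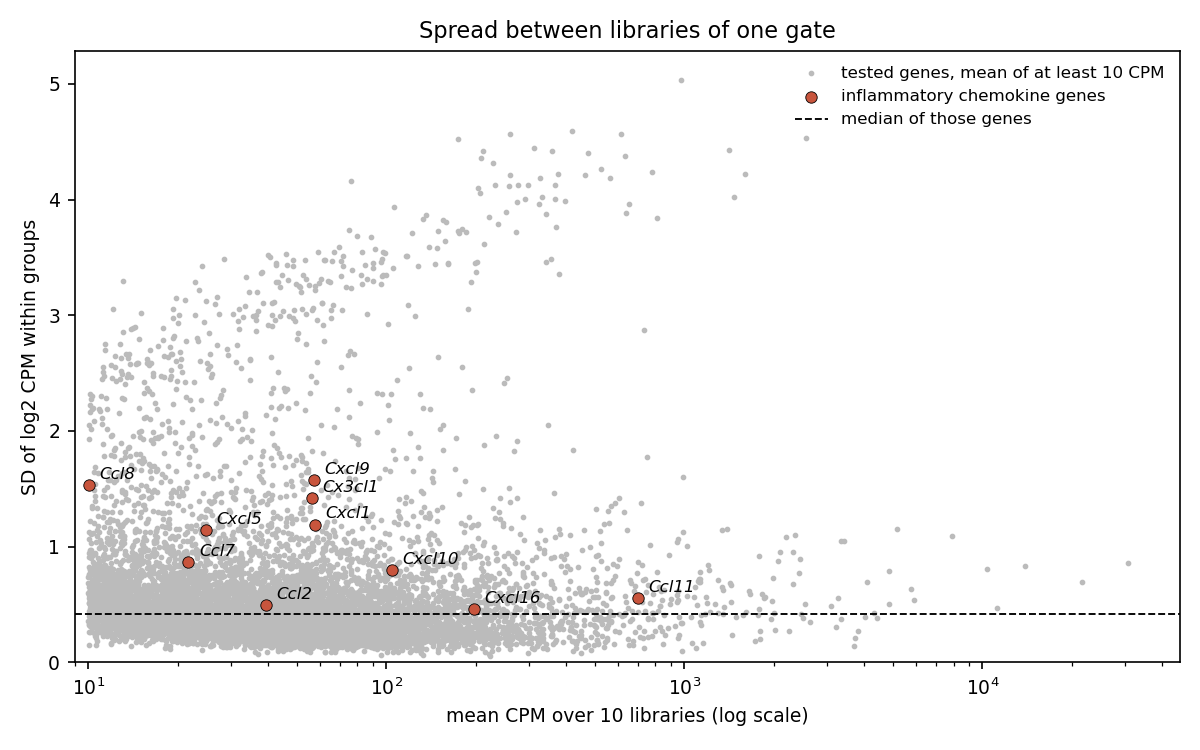
SD of log2 CPM between libraries of the same gate against the mean CPM over 10 libraries (log scale), for tested genes of at least 10 CPM (grey) and the 10 inflammatory chemokine genes (red); the dashed line is the median of the grey genes, 0.42. All 10 chemokine genes lie above the line, from Cxcl16 at 0.46 to Cxcl9 at 1.58.

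Part of this spread lay between replicates 1 to 3 and replicates 4 and 5, a division by sequencing depth that was made after the data were seen. Within MCi, Cxcl9 and Cxcl16 were higher in MCi4 and MCi5 than in MCi1 to MCi3, by 2.78 ± 0.38 and 0.97 ± 0.15 on the log2 scale (edgeR adjusted p = 0.0283 and 0.0323), so that 2 of 10 members passed, against 1.48% of all genes in either direction and 0.75% in this one. Cxcl9 averaged 23.2 ± 10.7 CPM in MCi1 to MCi3 (SD, n = 3), and every one of these libraries was below MCi4 and MCi5. Ccl11 and Ccl8 had fitted differences of 0.89 and 1.74 in the same direction, and Ccl7 and Cxcl1 of −1.54 and −2.59, none of which passed (edgeR adjusted p = 0.0745, 0.174, 0.0532 and 0.0882). Ccl2, Cxcl5 and Cxcl10 had differences of −0.34 to 0.20, and Cx3cl1 of 0.68 (edgeR adjusted p = 0.286 to 0.945 for these 4 genes).

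Within MCi the immediate early and dissociation response genes also differed. Of the 17 tested, 6 were lower in MCi4 and MCi5, against 0.726% of all genes, and 0 were higher (median −1.01): Fos, Fosb, Jun, Atf3, Egr2 and Nr4a1, named after their values were seen, with log2 differences of −3.21 (Atf3) to −1.01 (Jun). The 18 genes summed to 18889, 19632, 13049, 7579 and 7447 CPM in MCi 1 to 5 and to 18764, 13156, 13170, 10259 and 7932 CPM in MRC 1 to 5. Markers of mesothelium summed to 19.0 to 121 CPM in MCi1 to MCi3 and to 766 and 813 CPM in MCi4 and MCi5. Those of endothelium summed to 89.0 to 148 CPM and to 457 and 438 CPM, of which Plvap made 411 and 396 CPM. Pecam1 and Cdh5, named after their values were seen, were at 0 to 1.32 CPM in MCi. Of the smooth muscle and pericyte markers, 2 of 8 were lower in MCi4 and MCi5, namely Kcnj8 and Rgs5 (−1.09 and −1.10, edgeR adjusted p = 0.0332 and 0.0362), and of the epithelial markers 1 of 15 was higher, Apoa4 (5.34, edgeR adjusted p = 0.00488); Rgs5 is named after its values were seen. The 9 tested fibroblast markers had a median difference of −0.62. The part of these cells and genes in the chemokine differences was not tested. Between the gates, 2 of 5 tested mesothelium markers were higher in MCi (Msln and Gpm6a), with 5 at an unadjusted p below 0.05 and 5 called by DESeq2. Without MRC4 and MRC5 neither passed (edgeR adjusted p = 0.157 and 0.165). Their fitted changes were −9.99 and −7.82 there, against −8.60 and −7.58 over all libraries. Of the other lists, 0 of 3 endothelial and 0 of 4 macrophage and dendritic cell markers passed in edgeR, at an unadjusted p under 0.05 or in DESeq2. Markers of macrophages and dendritic cells, which also make CXCL9, summed to 35.4 and 41.1 CPM in MCi4 and MCi5 and to 44.8 to 58.6 CPM in MCi1 to MCi3. Of the 4 tested, Lyz2 was at 17.5 and 22.5 CPM in MCi4 and MCi5 and at 16.1 to 36.8 CPM in MCi1 to MCi3. Over all MCi libraries Cd14 was at 10.6 to 19.5 CPM, Ptprc at 0.138 to 2.62 CPM and Csf1r at 0.448 to 2.62 CPM. The part of these cells in the Cxcl9 level was not tested.

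In MRC the replicate sets parted differently. Cxcl10 was lower in MRC4 and MRC5 than in MRC1 to MRC3, with a log2 difference of −1.38 ± 0.33 (edgeR adjusted p = 0.0305; 40.9 against 102.6 CPM on average), and was the 1 member of 10 that passed, against 20.4% of all genes. Cx3cl1 had a difference of 2.65 ± 0.88 and Cxcl5 one of −1.96 ± 0.80, which did not pass (edgeR adjusted p = 0.108 and 0.139). Summed fibroblast and epithelial markers differed between the same libraries, as given above, and their part in this was not tested.

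The gate contrast was also fitted inside each set. In replicates 1 to 3 alone (3 against 3 libraries), 0 of 10 members passed, against 0.801% of genes. The fitted changes ran from −0.64 for Ccl7 (edgeR adjusted p = 0.446) to 0.91 for Cxcl9. In replicates 4 and 5 alone (2 against 2), 5 members passed, against 26.2% of genes. Cxcl9, Cxcl10, Ccl11 and Cxcl16 were higher in MCi, at fitted log2 values (MRC minus MCi) of −2.71 ± 0.41, −1.67 ± 0.35, −1.16 ± 0.21 and −0.80 ± 0.16 (adjusted p in edgeR = 0.00683, 0.0199, 0.0125 and 0.0153), against 10.7% of genes in that direction. Cx3cl1 was higher in MRC, by 1.97 ± 0.25 (edgeR adjusted p = 0.00379), against 15.5%. Over the alternatives the adjusted p ran from these values up to 0.872 for Cxcl9, 0.890 for Cxcl10, 0.990 for Ccl11, 0.929 for Cxcl16 and 0.994 for Cx3cl1. A test of the difference between the sets themselves, the interaction of set and gate, passed for 0 members against 10.4% of genes. The smallest of its values were those of Cxcl16 (−0.93 ± 0.37, edgeR adjusted p = 0.132) and Cxcl9 (−3.56 ± 1.33, edgeR adjusted p = 0.140). The contrast within replicates 4 and 5 sets the closest MCi pair against the MRC libraries with the most epithelial transcripts, and these cannot be told apart from the gate there.

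**Figure D4:**
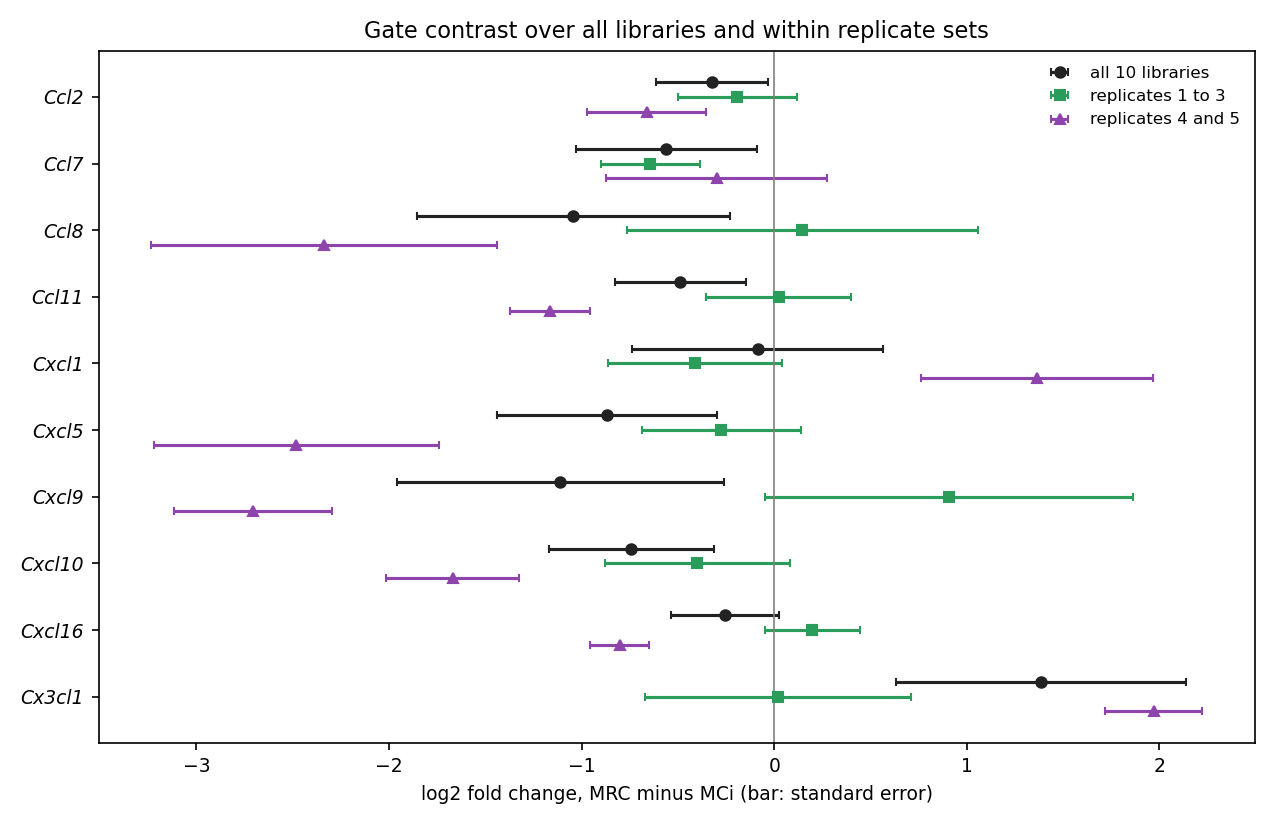
Log2 fold change (MRC minus MCi) with its standard error for each inflammatory chemokine gene, over all 10 libraries (black circles), replicates 1 to 3 (green squares) and replicates 4 and 5 (purple triangles). Over all libraries Cx3cl1 alone is above 0, at 1.39, and Cxcl9 runs from 0.91 in replicates 1 to 3 to −2.71 in replicates 4 and 5.

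The genes most like each member across the 10 libraries were found by the root mean square difference of centred log2 CPM among the tested genes of at least 10 CPM. For Cxcl9 they were Gbp4, Serpina3f and Gm4070 (0.86, 0.87 and 0.96), and for Cxcl10 they were Irgm1, A4galt and Sept10 (0.33, 0.34 and 0.34). Nearest to Cxcl1 were Klf4, Csrnp1 and Gadd45g (0.36, 0.42 and 0.52), and nearest to Ccl7 were Pdlim4, Tnfaip6 and Gem (0.28, 0.31 and 0.31). The closest matches belonged to steadier members: Ctps to Ccl2 (0.12), Slco2b1 to Cxcl16 (0.13) and Tmem200b to Ccl11 (0.14), Tmem200b being second for Cxcl16. Frk, Ucp2 and Lrrc8d were nearest to Cx3cl1 (0.35, 0.37 and 0.39), Zfp213 to Cxcl5 (0.38) and Kcnip3 to Ccl8 (0.84). This likeness over 10 libraries is a description of these samples.

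The rest of the chemokine system was read from lists of genes. Receptors for the cytokines that induce chemokines were all present. Of the 17 tested, 0 passed (edgeR), 2 reached an unadjusted p below 0.05, and 2 passed in DESeq2; 13 fitted changes were below 0 (median −0.23). Il4ra, a subunit of the IL-4 and IL-13 receptors that drive eotaxin, had a mean of 292 ± 56.5 CPM in MCi against 141 ± 41.6 CPM in MRC (SD, n = 5; −1.06 ± 0.24, edgeR adjusted p = 0.0974). Ifngr2, a subunit of the interferon-gamma receptor, averaged 49.5 ± 2.33 and 125 ± 79.0 CPM (1.33 ± 0.38, edgeR adjusted p = 0.163), and was highest in MRC4 and MRC5, at 186 and 231 CPM.

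NF-kB, STAT and IRF genes were all tested, and 0 of 24 passed in edgeR, with 5 at an unadjusted p under 0.05 and 3 called by DESeq2 (median −0.10). Nfkbie, an NF-kB inhibitor gene, had a mean of 24.1 ± 2.80 CPM in MCi against 39.1 ± 8.34 CPM in MRC (0.70 ± 0.19, edgeR adjusted p = 0.142). Jak2, a kinase of the interferon-gamma receptor, averaged 58.4 ± 11.5 and 96.4 ± 28.1 CPM (0.72 ± 0.21, edgeR adjusted p = 0.171). Of 6 sheddases and chemokine-processing enzymes tested, 0 passed, 2 reached an unadjusted p below 0.05, and 1 passed in DESeq2 (median −0.06). Adam10, which releases CX3CL1 and CXCL16 from the membrane, had a mean of 121 ± 18.4 CPM in MCi against 86.1 ± 21.5 CPM in MRC (−0.50 ± 0.21, edgeR adjusted p = 0.273). Dpp4, an exopeptidase that trims several chemokines, ranged over 2.62 to 51.2 CPM among MCi libraries, against 9.02, 9.53, 132, 633 and 869 CPM across the MRC libraries 1 to 5. Its change of 3.62 ± 1.35 did not pass (edgeR adjusted p = 0.240). Without MRC4 and MRC5, the libraries with the most epithelial transcripts, it was 0.89 (edgeR adjusted p = 0.832). Between the gates the immediate early list had 0 of 17 past the threshold, 0 at an unadjusted p under 0.05 and 0 called by DESeq2 (median −0.04).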

How the data were processed

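Sorted mesenchyme of mouse Peyer's patches was measured in 10 libraries (5 MCi, 5 MRC). Per the labels, RNA came from a column kit and cDNA from SMART-Seq v4, which does not mark strand. The build is GRCm38, per the submitters' processing notes, while the aligner is not given in the sources used here. Deposited tables hold the authors' counts of total and unique exon reads, and the authors' RPKM, per the file headers.

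From these, genes with an exon length (16517 had none) were filtered by filterByExpr (minimum count 10, minimum total 15), leaving 12127. The filter passed all 10 members. TMM factors and edgeR 4.0.16 (quasi-likelihood, robust; R 4.3.3) tested MRC minus MCi over all genes, with Benjamini-Hochberg adjustment and a threshold of 0.05. The standard error is the absolute log2 fold change over the square root of F. Centred log2 CPM used a prior count of 2. A count of 3 reads equals 0.343 to 0.761 CPM of unscaled totals; without molecular identifiers PCR copies count as reads, so this floor covers counting error only. No 2 libraries held identical values.

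Alternatives were DESeq2 1.42.0, edgeR with the size factors of DESeq2 or with upper-quartile scaling, an unfiltered table, a minimum of 5 CPM in 5 libraries, a block for the replicate number, leaving out each library, limma 3.58.1 on log2(RPKM + 1) or log2(RPKM + 0.1) with at least 1 RPKM in 5 libraries or unfiltered, a threshold of 0.01, and unique exon reads. Fits added once values were known left out MRC4 and MRC5 or used replicates 1 to 3 or 4 and 5 alone, their set as a covariate, the interaction of set and gate, or the sets within a gate. The fit was tested on simulated counts.

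The members and lists were chosen with earlier results of these data known. All members are described. From the 6 pathway lists and the 8 lists of cell type markers, up to 4 tested genes with the smallest p may be named; others are said to be named after their values were seen. Each member has up to 3 most similar genes. Itgam, of the macrophage list, was not analysed here. The result of 1 pathway list is not reported here.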

Additional observations from a re-analysis of the deposited data

How the results depend on the processing

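No member passed in 23 of 24 alternative fits, or at a threshold of 0.01; 5 passed in replicates 4 and 5 alone. Of 240 log2 fold changes under these fits, 221 kept direction and side of the threshold, 5 newly passed and 14 changed sign. Those were Cxcl1 with the replicate block (0.29), without MCi2 (0.65) or MRC5 (0.15; −0.34 to 0.65 when 1 library was left out), in limma with a pseudocount of 1, filtered or not (0.0368), or 0.1 (0.0428), without MRC4 and MRC5 (0.18), in replicates 4 and 5 (1.36) and with the set as a covariate (0.30); Ccl8 (0.15), Ccl11 (0.0229), Cxcl9 (0.91) and Cxcl16 (0.20) in replicates 1 to 3; and Cx3cl1 without MRC4 and MRC5 (−0.30). The cause was not tested. The count over all genes, 53, was 871 in DESeq2, 244 and 159 in limma with pseudocounts of 1 and 0.1, 149 in limma unfiltered, 128 without MRC4 and MRC5, 95 in replicates 1 to 3, 3460 in replicates 4 and 5, 206 with the set as a covariate, 12 at 0.01, and 19 to 49 when 1 library was left out. Replicate numbers were not treated as pairs: the deviations of same-numbered libraries correlated at 0.56, −0.25, 0.06, 0.35 and 0.49. With the replicate block 49 genes and 0 members passed. Members had 3 to 11222 reads per library, and depth limits Ccl8 most, at 3 and 6 reads in MRC3 and MRC4.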

Other observations

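Most of the other chemokine ligand genes that were listed were sparse. Of 22 listed, 5 had enough reads to be tested, and none of these passed in edgeR (0 of 5; 1 at an unadjusted p below 0.05, and 1 in DESeq2). Ccl25, the chemokine gene of small intestinal epithelium, ranged over 0.476 to 46.3 CPM among MCi libraries, against 0.712, 14.7, 179, 987 and 710 CPM across the MRC libraries 1 to 5 (log2 fold change 4.32 ± 1.67, edgeR adjusted p = 0.251; 1.77 without MRC4 and MRC5). Cxcl14 had a mean of 163 ± 103 CPM in MCi against 122 ± 53.2 CPM in MRC (SD, n = 5; edgeR adjusted p = 0.698), and within MCi was higher in MCi4 and MCi5, at 280 and 272 CPM, than in MCi1 to MCi3, at 81.6 to 98.1 CPM (log2 difference 1.65 ± 0.16, edgeR adjusted p = 0.00967). Cxcl2, a CXCR2 ligand gene named after its values were seen, was at 3.17 to 10.5 CPM in MCi and 0.237 to 19.3 CPM in MRC, below Cxcl1 in every library. Markers of smooth muscle and pericytes summed to 2589 to 4752 CPM in MCi and 871 to 1641 CPM in MRC, with 2 of 8 tested (Kcnj8 and Acta2) higher in MCi, 5 at an unadjusted p below 0.05 and 5 called by DESeq2, and those of enteric glia to 143 to 437 and 5.70 to 392 CPM, with 0 of 5 past the threshold in edgeR, 3 at an unadjusted p under 0.05 and 2 called by DESeq2. Without MRC4 and MRC5, Kcnj8, Acta2, Tagln and Abcc9 passed (edgeR adjusted p = 0.00841, 0.0071, 0.0362 and 0.015), against 1.03% of all genes. Lymphocyte markers summed to 0.448 to 5.29 CPM in MCi and 2.85 to 28.2 CPM in MRC, and 0 of 8 had enough reads to be tested.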
